A study of Mus musculus with 54 samples.

Results

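The comparison of WT cerebellum with WT striatum covered 16 of the 54 RNA-seq libraries of the series. It was made up of the 8 libraries labelled WT cerebellum and the 8 labelled WT striatum, 1 of each from every WT mouse, and the mouse number in the labels paired them. The mice were 8 weeks old and on a C57BL/6 background, 5 females and 3 males. There were 3 WT mice from litter 1, 1 from litter 2 and 4 from litter 3. None of them carried the gene trap in the second intron of Mbd5 that the study examined, and the 10 Mbd5+/GT mice of the same litters, heterozygous for that hypomorphic allele, are used below only to set the same regional contrast beside that of the WT mice. The values were counts of reads per gene from polyA RNA of whole tissue pieces, given here as CPM (counts scaled to a common library total) after TMM normalization, which sets each library by the bulk of its genes. The labels say of each tissue type that its collection fell on a single day and give no dates, so a difference in collection between the tissues and a difference between the regions cannot be told apart.

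The cerebellum and the striatum are built from different cells. Most cerebellar neurons are granule cells, small glutamatergic neurons whose parallel fibres contact Purkinje cells, the GABAergic output neurons of the cerebellar cortex. The striatum, the input nucleus of the basal ganglia, holds mainly GABAergic projection neurons. Those of the direct pathway carry the dopamine D1 receptor and the peptides substance P and dynorphin, and those of the indirect pathway carry the dopamine D2 receptor, the adenosine receptor encoded by Adora2a and enkephalin. In bulk tissue, fewer cells of a type and less RNA of a gene per cell cannot be told apart.

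Each library held between 27221659 and 33567642 counted reads on genes, and 18279 of the 47069 annotated genes were tested, those where 8 or more of the 16 libraries exceeded 4 counts. The first principal component of log2 CPM held 71.5% of the variance and separated the 8 libraries of cerebellum, at -91.35 to -26.13, from the 8 of striatum, at 59.33 to 85.15. Libraries of the same group differed from each other by far more than counting error, so no library was counted as a copy of another. Mbd5 itself did not differ detectably between the regions, with a mean of 54.2 ± 10.6 CPM (SD, n = 8) in cerebellum and 48.8 ± 8.21 in striatum (log2 fold change 0.15, SE 0.14, adjusted p = 0.40). In this comparison the 2 libraries of striatum labelled as repeated, from mice M751 and M752, were kept.

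The tissue labels were checked against marker genes, and 2 mice stood apart. The summed CPM of 22 markers of striatal projection neurons was 10593 to 22244 in the libraries labelled striatum of 6 mice, but 2029 in that of mouse M754 and 2581 in that of mouse M761, 17.7% and 22.5% of the group median. In the library labelled striatum of mouse M754, Drd1 was at 11.4 CPM, Drd2 at 2.78 CPM and Ppp1r1b at 54.7 CPM, and in that of mouse M761 they were at 27.6, 17.5 and 167.5 CPM. In the cerebellum of mouse M754 the sum of 15 granule cell markers was 2629, or 35.7% of the group median, against 4888 in mouse M761 and 7172 to 8032 in the other 6 mice. The 39 Hox genes, which are active in the hindbrain below the cerebellum and in the spinal cord, summed to 169.8 CPM in the cerebellum of mouse M754, to 65.5 in that of mouse M761 and to 5.16 in that of mouse M762, against 0.106 to 0.778 in the other 5 and 0.169 to 0.49 in the striatum. Markers of the choroid plexus, the epithelium that makes cerebrospinal fluid, varied within both groups, from 32.2 to 2569 summed CPM in cerebellum and from 24.2 to 6294 in striatum. Counts of the gene lists are therefore also given without mice M754 and M761, which left 6 mice, where a count changed. They were set apart because a library fell below 50% of its group's median for the granule cell or projection neuron markers. A larger difference in these 2 lists, or in genes of the same cells, without them follows from that choice and is no separate support.

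**Figure D1:**
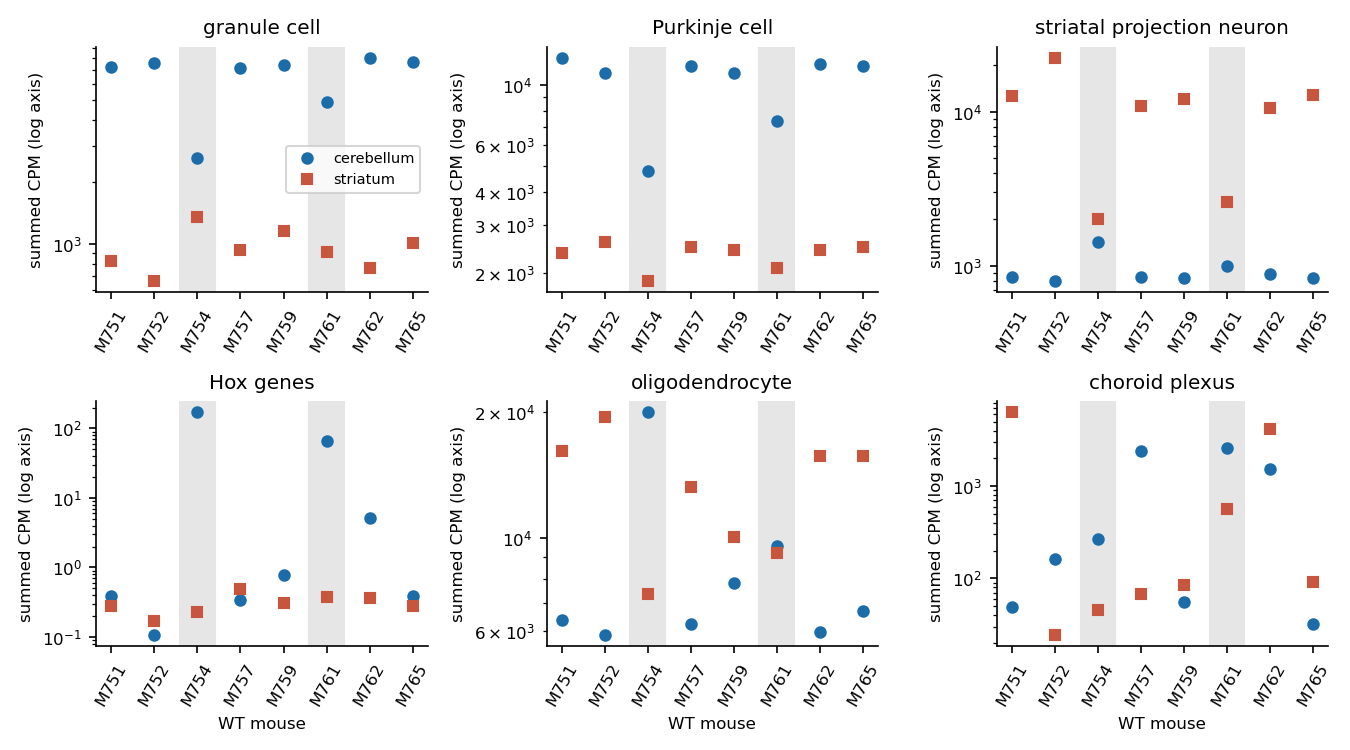
Summed CPM (log axis) of 6 marker lists in the libraries of cerebellum (blue circles) and striatum (red squares) of each WT mouse, with mice M754 and M761 shaded. Striatal projection neuron markers in the striatum were at 2029 in mouse M754 and 2581 in mouse M761 and at 10593 or more in the other 6 mice, and Hox genes were highest in the cerebellum of mice M754 and M761.

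Of the 18279 genes tested, 5314 (29.1%) were higher in cerebellum and 5626 (30.8%) were lower, at an adjusted p under 0.05 in a paired edgeR fit. A change of 2-fold or more was found for 2145 genes higher in cerebellum (11.7%) and 2959 lower (16.2%), and one of 8-fold or more for 308 and 613. Of the calls, 5836 genes or 53.3% had a fold below 2. The median log2 fold change (log2FC, positive where cerebellum was higher) of all genes tested was -0.03, with a median SE of 0.17. In 2256 genes (12.3%) all 8 libraries of cerebellum lay above all 8 of striatum, and in 2209 (12.1%) the reverse held. Without mice M754 and M761 the calls numbered 5503 higher and 5947 lower, of which 2226 and 3243 were of 2-fold or more, and the median SE was 0.15.

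**Figure D2:**
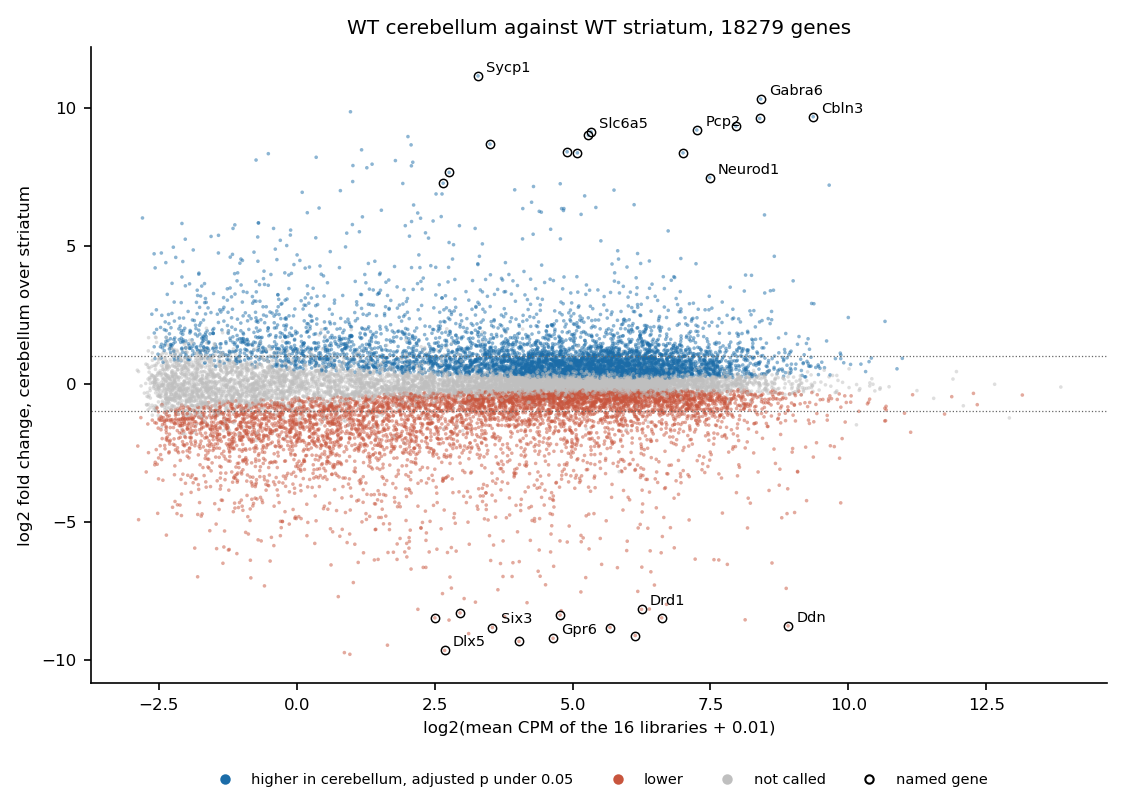
Log2 fold change of cerebellum over striatum against log2 of the mean CPM of the 16 WT libraries for each gene tested, coloured by call, with dotted lines at 2-fold and circles around 27 of the 30 leading genes. The 15 leading genes lay at 7.27 to 11.16 above 0 and at -9.67 to -8.18 below it.

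The genes that led the comparison, taken as the 15 protein-coding genes with the largest fold in each direction and a mean of at least 10 CPM in the higher region, included genes of granule and Purkinje cells on one side and of striatal and other forebrain neurons on the other. Promoters are shown for the cell type markers Gabra6, Cbln3, Pcp2 and Drd1 and for the neuropeptide gene Sst. These are examples, and Sst is not among the leading genes. No comparison between genes higher and lower in cerebellum can be drawn from them. RefSeq promoters of GRCm38.p6, from 250 bases before to 50 after the start, were matched for 19 of the 30 leading genes. They were searched on both strands for a TATA box (TATAAA), a GC box (GGGCGG), a cAMP response element (TGACGTCA) and an E-box (CATCTG), which do not contain each other, and the letters CG were counted. Of 27025 mouse promoters of 300 bases, 14.2% held the TATA box, 35.9% the GC box, 1.85% the cAMP response element and 17.3% the E-box, and the median count of CG was 7. The promoters of Gabra6 (chr11:42321023-42321322, minus strand), Cbln3 (chr14:55884207-55884506, minus) and Pcp2 (chr8:3625498-3625797, minus) held CG 2, 2 and 1 times. Those of Drd1 (chr13:54055609-54055908, minus) and Sst (chr16:23890795-23891094, minus) held it 23 and 13 times. Capitals mark the motif matches, which were the E-box on the minus strand 100 bases before the start of Pcp2, the GC box 16 bases after the start of Drd1 and the cAMP response element 48 bases before the start of Sst. No match was found in Gabra6 or Cbln3, which says only that these letters are not in the window.
Gabra6: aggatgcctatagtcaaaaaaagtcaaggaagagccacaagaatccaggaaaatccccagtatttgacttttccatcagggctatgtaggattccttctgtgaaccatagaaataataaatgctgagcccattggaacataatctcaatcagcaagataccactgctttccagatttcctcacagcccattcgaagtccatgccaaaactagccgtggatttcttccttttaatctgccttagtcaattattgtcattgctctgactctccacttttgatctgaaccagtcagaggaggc
Cbln3: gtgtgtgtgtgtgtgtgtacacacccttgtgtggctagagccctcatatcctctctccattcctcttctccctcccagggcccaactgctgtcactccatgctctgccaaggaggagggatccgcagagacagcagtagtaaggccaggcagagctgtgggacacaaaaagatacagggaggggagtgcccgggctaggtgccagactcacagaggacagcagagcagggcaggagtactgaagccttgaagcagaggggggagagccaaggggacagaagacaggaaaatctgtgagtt
Pcp2: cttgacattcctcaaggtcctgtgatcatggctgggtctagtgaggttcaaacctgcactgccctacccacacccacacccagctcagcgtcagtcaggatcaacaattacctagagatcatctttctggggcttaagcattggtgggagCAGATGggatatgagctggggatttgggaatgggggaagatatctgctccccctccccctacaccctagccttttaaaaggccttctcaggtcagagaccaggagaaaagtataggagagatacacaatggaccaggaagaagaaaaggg
Drd1: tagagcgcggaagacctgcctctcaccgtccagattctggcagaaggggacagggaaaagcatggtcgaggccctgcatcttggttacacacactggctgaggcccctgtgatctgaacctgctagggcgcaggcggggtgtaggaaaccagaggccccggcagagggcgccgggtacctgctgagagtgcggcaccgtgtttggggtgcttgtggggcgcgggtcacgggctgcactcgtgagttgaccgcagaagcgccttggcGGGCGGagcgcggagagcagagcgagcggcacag
Sst: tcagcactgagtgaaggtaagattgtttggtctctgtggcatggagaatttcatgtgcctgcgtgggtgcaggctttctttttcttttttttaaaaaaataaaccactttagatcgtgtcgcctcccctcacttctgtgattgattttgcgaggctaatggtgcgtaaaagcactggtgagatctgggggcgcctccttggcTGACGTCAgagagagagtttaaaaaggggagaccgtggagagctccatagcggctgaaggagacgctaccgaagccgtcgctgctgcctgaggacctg

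Gabra6, the GABA-A receptor subunit alpha-6 of granule cells (chr11:42306437-42321072), ranged in cerebellum from 222.6 CPM in mouse M754 to 926.2, with a median of 703.4. In striatum it ranged from 0.203 to 1.79 CPM with a median of 0.426 (log2FC = 10.32, SE 0.39, adjusted p = 2.2e-08). Cbln3, a cerebellin secreted by granule cells (chr14:55878913-55884392), was at 441.2 to 1689 CPM, median 1477, in cerebellum and at 0.803 to 3.47 CPM, median 1.46, in striatum (log2FC = 9.68, SE 0.34, adjusted p = 1.5e-08). The lowest cerebellum library of both genes was that of mouse M754, and it still lay above every library of striatum. Both genes were highest in striatum in mouse M757, at 1.79 and 3.47 CPM.

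Fat2, a large cadherin of granule cells, had a median of 694.8 CPM in cerebellum and of 0.812 CPM in striatum (log2FC = 9.62, SE 0.43). Neurod1, a basic helix-loop-helix factor of granule cells, was at 120.5 to 434.9 CPM in cerebellum and at 0.592 to 3.61 CPM in striatum (log2FC = 7.47, SE 0.48). Barhl1, a homeobox factor of the granule lineage, was at 7.72 to 17.8 CPM in cerebellum and at 0 to 0.237 CPM in striatum (log2FC = 7.66, SE 0.48). Of the Purkinje cell genes, Pcp2 (chr8:3623371-3625545) ranged from 96.4 to 516.3 CPM in cerebellum and from 0.0339 to 1.14 CPM in striatum (log2FC = 9.20, SE 0.29). Its exons share 51.5% of their bases with another gene, so its count is uncertain. Ppp1r17, a substrate of cGMP-dependent kinase in Purkinje cells, had medians of 298.7 CPM and 0.694 CPM (log2FC = 8.37, SE 0.53). The cerebellum and striatum libraries of all of these genes were separate, but the genes were chosen for their large fold in these same libraries.

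Other leading genes belonged to less abundant cerebellar cells or are better known elsewhere. Slc6a5, the neuronal glycine transporter, had a median of 35.0 CPM in cerebellum and 0.0663 CPM in striatum (log2FC = 9.13, SE 0.45). Its cerebellum values were not alike, since the library of mouse M754 was at 322.0 CPM, that of mouse M761 at 115.8 CPM and the other 6 at 27.4 to 52.1 CPM, and without both mice its log2FC was 8.44. Dao, D-amino acid oxidase, was at 40.7 to 90.1 CPM in cerebellum and at 0.0968 to 0.28 CPM in striatum (log2FC = 8.37, SE 0.20). Sycp1, which encodes a protein of the synaptonemal complex of meiosis (chr3:102818499-102936100), was at 6.12 to 26.6 CPM in cerebellum. In striatum it had 1 count in all 8 libraries against 4616 counts in cerebellum, a ratio of 4530 with a 95% counting interval of 812 to 179000. Cnpy1, Crtam, Nrk and Pkp3 had log2FC values of 9.34, 9.01, 8.41 and 7.27. Iltifb, at 8.69, has a near-identical copy and its count is uncertain.

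On the other side, Dlx5 and Dlx6, neighbouring homeobox genes of GABAergic forebrain neurons (chr6:6877805-6882085 and chr6:6863334-6868568), were nearly absent from cerebellum. Dlx5 had 3 counts in the 8 libraries of cerebellum and 3016 in striatum, a ratio of 1030 with a 95% counting interval of 351 to 4980. Without mice M754 and M761 it had 0 counts in cerebellum and was at least 647-fold lower there, with 3 counts over the 6 libraries as the floor. Dlx6 was at 0 to 0.115 CPM in cerebellum and at 19.7 to 50.8 CPM in striatum, median 33.2 (log2FC = -9.34, SE 0.39). Dlx2, Six3 and Nr2e1, transcription factors of the forebrain, had log2FC values of -8.49, -8.84 and -8.31. For Dlx5, Dlx6 and Nr2e1 the striatum libraries of mice M754 and M761 were not far below the others, and for Dlx5 that of mouse M754 was the highest, at 19.9 CPM, while mouse M754 was the lowest for Six3, at 0.516 CPM against a median of 21.4 CPM.

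Genes of striatal projection neurons among the leaders spread more widely. Drd1, the dopamine D1 receptor (chr13:54051183-54055705), was at 153.9 to 296.8 CPM in 6 libraries of striatum but at 11.4 CPM in mouse M754 and 27.6 CPM in mouse M761, and at 0.205 to 0.689 CPM in cerebellum (log2FC = -8.18, SE 0.68, adjusted p = 3.9e-06). Without mice M754 and M761, which were set apart for low striatal markers, the estimate was larger and its error smaller, at -9.19 with an SE of 0.19. Gpr6, a receptor of indirect pathway neurons, was at 1.26 to 106.2 CPM in striatum, with a cerebellar median of 0.0781 CPM (log2FC = -9.23, SE 0.51). Crym, Ankrd63, Ddn, Lrrc10b and Cd4 were also among the leading lower genes, at -9.13, -8.84, -8.78, -8.49 and -8.39. In all 12 leading lower genes are reported here. Ddn, which encodes the dendritic protein dendrin, was at 632.1 to 1233 CPM in striatum and at 1.09 to 3.51 CPM in cerebellum, and in WT cortex it was at 788.9 to 1060 CPM.

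**Figure D3:**
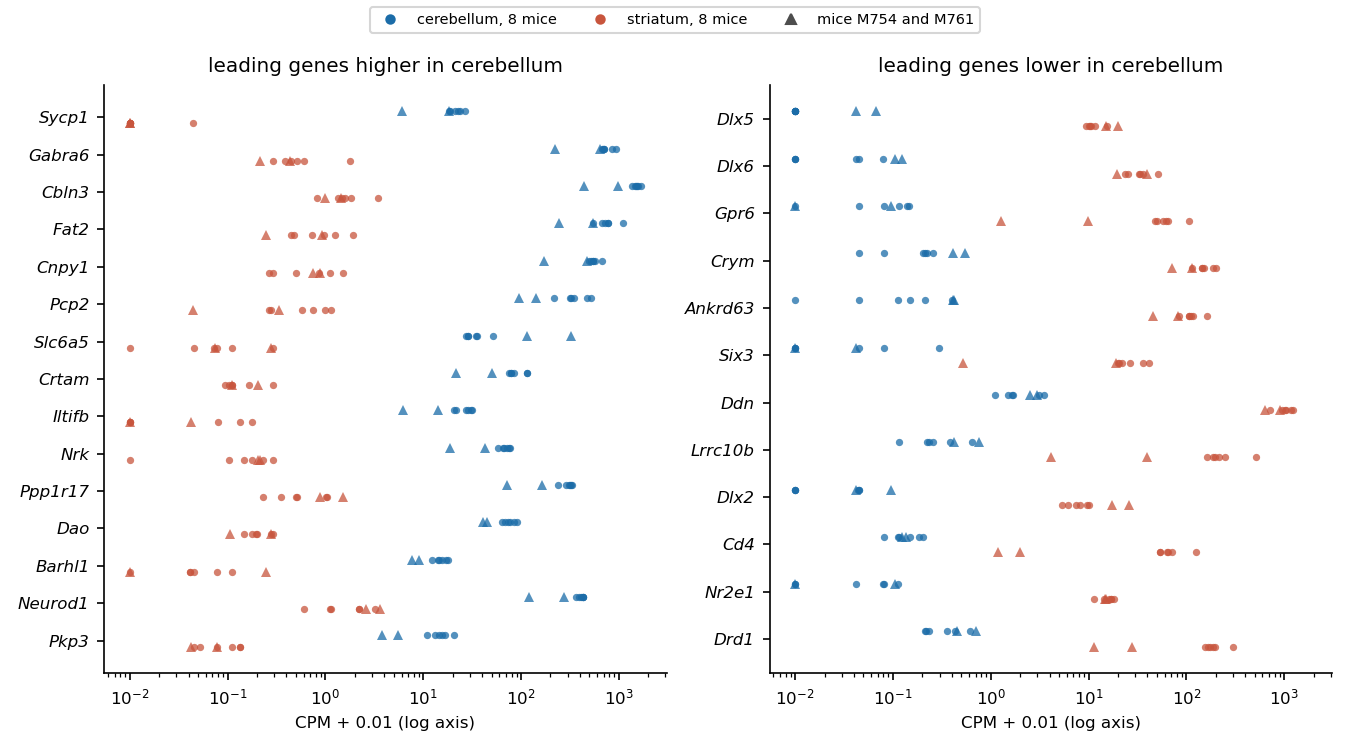
CPM plus 0.01 (log axis) of 15 leading genes higher and 12 lower in cerebellum in the 8 libraries of cerebellum (blue) and the 8 of striatum (red), with triangles for mice M754 and M761. The 2 regions were separate for each of the 27 genes, which were chosen by their fold in these same libraries. The triangles lay below the other striatum points for Gpr6, Lrrc10b, Cd4 and Drd1 and above the other cerebellum points for Slc6a5.

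The granule cell list was higher in cerebellum as a whole. Of its 15 members 14 were higher and none was lower, with a median log2FC of 3.94, beside -0.03 for all genes and 29.1% called higher. Zic1 and Zic2, zinc finger factors of the granule lineage, had log2FC values of 4.62 and 3.88, and Pax6, the paired-box factor of the rhombic lip, 3.29. Etv1 was at 124.9 to 472.1 CPM in cerebellum and at 21.5 to 42.1 CPM in striatum (log2FC = 2.92, SE 0.19). Slc17a7, the vesicular glutamate transporter VGLUT1, did not pass the test. It was at 201.9 to 488.5 CPM in cerebellum, 218.2 to 833.8 CPM in striatum and a mean of 866.0 CPM in WT cortex, whose neurons use the same transporter. Without mice M754 and M761 the same counts were found, and the median was 5.09. Mouse M754 was set apart in part by this same list. The library labelled striatum of mouse M761 held 156.0 CPM of Zic1, against a striatal median of 24.2 CPM.

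Of the 19 Purkinje cell markers 17 were higher in cerebellum and 1 was lower (median log2FC 3.17), beside 29.1% and 30.8% of all genes. Without mice M754 and M761 the counts were 18 and 1. Car8, a carbonic anhydrase-related protein that binds the inositol trisphosphate receptor, was at 488.8 to 2102 CPM in cerebellum and at 8.3 to 15.8 CPM in striatum (log2FC = 7.20, SE 0.27). Calb1, the calcium buffer calbindin, is also made in the striatum and had a smaller difference, from a median of 1303 CPM to 167.1 CPM (log2FC = 2.91, SE 0.16). Lhx1 and Lhx5, transcription factors of Purkinje cells, had log2FC values of 7.25 and 5.12. Pcp4 was the member that was lower in cerebellum, with a median of 58.4 CPM against 82.2 CPM (log2FC = -0.77, SE 0.24, adjusted p = 0.016).

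Among 9 markers of other cerebellar neurons 7 were higher and 1 was lower (median 2.34), beside 29.1% and 30.8% of all genes. Without mice M754 and M761 the count was 5 and 1 (median 1.42). Eomes, a T-box factor of unipolar brush cells, had a median of 36.4 CPM in cerebellum and 2.24 CPM in striatum (log2FC = 3.67, SE 0.80), although 1 library of striatum reached 37.9 CPM. Pvalb, the calcium buffer parvalbumin of Purkinje cells and interneurons, and Kit, a receptor of molecular layer interneurons, had log2FC values of 3.93 and 2.4. Lmx1a and Slc17a6 were the calls that depended on both mice, with adjusted p = 0.034 and 0.017 in all 8 mice and 0.16 and 0.10 without them. Of 8 Bergmann glia markers 7 were higher and none was lower (median 1.35), where 29.1% of all genes were higher. Gdf10, a growth factor of these radial astrocytes, was at 42.5 to 184.4 CPM in cerebellum and at 6.07 to 14.9 CPM in striatum (log2FC = 3.84, SE 0.22), while Hepacam did not differ detectably (-0.07, SE 0.12).

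In the signalling cascade of Purkinje cells, glutamate receptors act through phospholipase C on calcium stores. Of its 18 genes 13 were higher in cerebellum and 2 were lower (median 1.77), beside 29.1% and 30.8% of all genes. Without mice M754 and M761 the counts were 14 and 2. Of the phospholipases, Plcb4 had a log2FC of 2.96 and Plcb3 of 1.28. At the calcium store, Itpr1, the inositol trisphosphate receptor, had medians of 2669 CPM and 645.6 CPM (log2FC = 2.26, SE 0.24). The scaffold Homer3 was at 102.4 to 420.4 CPM against 11.7 to 14.6 CPM (log2FC = 4.35, SE 0.26). Car8, Pvalb and Calb1, given above, are on this list too. Some other members moved less or the other way. The G protein subunit Gna11 was lower (log2FC = -0.52, SE 0.086), Gnaq was higher (0.62, SE 0.12), and the calcium sensor Stim1 was at -0.05 (SE 0.091).

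The cerebellins, secreted proteins that bridge presynaptic neurexins and postsynaptic delta glutamate receptors, divided between the regions. Of 9 genes 5 were higher and 3 were lower, beside 29.1% and 30.8% of all genes. The counts were 6 and 3 without mice M754 and M761. Cbln1 was at 314.7 to 1015 CPM in cerebellum and 4.99 to 20.9 CPM in striatum (log2FC = 6.12). Cbln2, Cbln4 and the receptor gene Grid1 were lower in cerebellum, at -3.85, -1.59 and -1.54. Of the neurexins, Nrxn3 was higher (0.83) and Nrxn2 did not pass the test (0.38, adjusted p = 0.12).

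All 22 markers of striatal projection neurons were lower in cerebellum, with a median log2FC of -3.88 where 30.8% of all genes were lower. In 15 of them the libraries of the regions did not overlap, beside 12.1% of all genes in this direction. Ppp1r1b, which encodes the phosphatase inhibitor DARPP-32, had a striatal median of 1290 CPM and a cerebellar one of 137.4 CPM (log2FC = -2.66, SE 0.46), and its groups overlapped as the libraries labelled striatum of mice M754 and M761 were at 54.7 and 167.5 CPM and cerebellum reached 169.9 CPM. Rgs9, a GTPase activator, was at 31.7 to 945.3 CPM in striatum and 2.36 to 6.37 CPM in cerebellum (log2FC = -6.39, SE 0.78). Gnal, the G protein that couples the D1 and Adora2a receptors to adenylyl cyclase, had the smallest difference of the list (log2FC = -1.42, SE 0.26). Bcl11b, a zinc finger factor of projection neurons, had a median of 133.4 CPM against 1.38 CPM (log2FC = -6.05, SE 0.59). Without mice M754 and M761, set apart by this same list, all 22 were again lower, with a median of -4.39. The summed level of the list was then 10593 to 22244 CPM in striatum, 800.3 to 883.0 in cerebellum, and 2406 to 6641 in WT cortex.

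Both output pathways of the striatum were lower in cerebellum. Of 9 direct pathway markers 7 were lower and 1 was higher (median -5.68), beside 30.8% and 29.1% of all genes. Tac1, the precursor of substance P, had medians of 154.8 CPM in striatum and 0.899 CPM in cerebellum (log2FC = -6.65, SE 1.0), and Pdyn, that of dynorphin, 84.4 CPM and 0.212 CPM (log2FC = -7.03, SE 0.98). Ebf1, a transcription factor of the direct pathway, was the member that was higher in cerebellum, at 35.3 to 66.4 CPM against 2.68 to 10.9 CPM (log2FC = 2.90, SE 0.21). All 6 indirect pathway markers tested were lower (median -7.08, and -8.36 without mice M754 and M761). Drd2, the dopamine D2 receptor, had medians of 89.2 CPM and 0.51 CPM (log2FC = -6.55, SE 1.2), and Adora2a, an adenosine receptor, 202.2 CPM and 1.97 CPM (log2FC = -6.13, SE 0.80). Penk, the precursor of enkephalin, was at 117.0 to 2150 CPM in striatum and stayed at 72.2 to 124.0 CPM in cerebellum (log2FC = -3.18, SE 0.48), where it is known from Golgi cells.

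Of 11 markers of striatal interneurons 9 were lower in cerebellum and 1 was higher (median -5.61), beside 30.8% and 29.1% of all genes. Without mice M754 and M761 the counts were 10 and 1. Sst, the precursor of somatostatin, was at 154.1 to 266.4 CPM in striatum. In cerebellum it had a median of 2.17 CPM and a highest value of 46.8 CPM (log2FC = -5.95, SE 0.64). Chat, the enzyme of acetylcholine synthesis, had medians of 13.1 CPM and 0.0335 CPM, but its groups overlapped, from 0.129 CPM in striatum to 5.8 CPM in cerebellum, and its log2FC moved from -6.12 (SE 1.5) to -9.08 without mice M754 and M761. Nos1, neuronal nitric oxide synthase, was the member that was higher in cerebellum (log2FC = 1.03, SE 0.16), where granule cells and molecular layer interneurons also make it. The 7 markers of cortical glutamatergic neurons were all lower in cerebellum (median -5.23). Their summed level was 169.8 to 364.3 CPM in the libraries labelled striatum and 319.2 to 825.5 CPM in WT cortex. Tbr1, a T-box factor of these neurons, was at 23.2 to 66.9 CPM in striatum and at a mean of 102.4 CPM in cortex, and what part cells of the neighbouring cortex had in these values was not tested.

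Transcription factors that pattern the brain in the embryo differed between the regions at 8 weeks. Of 21 hindbrain factors tested 20 were higher in cerebellum and 1 was lower (median 5.12), beside 29.1% and 30.8% of all genes. En2, the engrailed factor of the midbrain-hindbrain boundary, was at 38.2 to 131.1 CPM in cerebellum and 0.129 to 1.11 CPM in striatum (log2FC = 7.02, SE 0.15, adjusted p = 1.1e-09). Pax2, Pax3 and Tfap2b were higher at 7.26, 8.09 and 6.22. Gbx2 was the lower member (-2.89, SE 1.1, adjusted p = 0.041), at 0 to 2.56 CPM in cerebellum and 0.0968 to 7.75 CPM in striatum. All 39 Hox genes fell below the limit on low counts and were not tested. Of 18 telencephalic factors 16 were lower in cerebellum and 2 were higher (median -7.45), and in the 16 the groups did not overlap. Among all genes 12.1% had no overlap in this direction. Lhx2 was at 20.8 to 39.3 CPM in striatum and 0.0696 to 2.44 CPM in cerebellum (log2FC = -6.45, SE 0.49). The 2 that were higher were the nuclear receptors Nr2f1 and Nr2f2, at 0.58 and 0.70, both of which are also made in the cerebellum.

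Of 25 genes of dopamine, adenosine and cAMP signalling 19 were lower in cerebellum and 2 were higher (median -2.28), beside 30.8% and 29.1% of all genes. Without mice M754 and M761 the counts were 20 and 3. Of the receptors, Drd5 was lower (log2FC = -2.34, SE 0.48) besides Drd1 and Drd2, and Drd4 was at or below 0.389 CPM in every library. Adora1, the adenosine A1 receptor, was higher in cerebellum, at 215.6 to 310.5 CPM against 131.1 to 244.0 CPM (log2FC = 0.46, SE 0.10). The adenylyl cyclases went apart. Adcy5, that of projection neurons, had medians of 957.2 CPM in striatum and 49.7 CPM in cerebellum (log2FC = -3.81, SE 0.50), and Adcy1, a calcium-stimulated cyclase of granule cells, 331.1 CPM and 1676 CPM (log2FC = 2.4, SE 0.28). The phosphodiesterases Pde1b, Pde10a, Pde7b and Pde4b were lower at -4.67, -2.51, -2.11 and -0.41. For Pde10a the groups overlapped, from 51.2 CPM in striatum to 105.6 CPM in cerebellum, and without mice M754 and M761 its log2FC was -3.35.

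Receptors for peptides, monoamines and acetylcholine were mostly lower in cerebellum, 18 of 22 tested, with Adra1a higher (median -2.53). For all genes the shares were 30.8% lower and 29.1% higher. Without mice M754 and M761 19 receptors were lower. Chrm1, the muscarinic M1 receptor, was at 65.7 to 199.9 CPM in striatum and 0.46 to 1.49 CPM in cerebellum (log2FC = -7.53, SE 0.33), and Chrm4, the M4 receptor of the direct pathway, had a log2FC of -5.68. The kappa and delta opioid receptors Oprk1 and Oprd1 were lower at -3.65 and -3.35, while Oprm1, the mu receptor, was at most 1.48 CPM in any of the 16 libraries. Of 18 neuropeptide precursor genes 15 were lower and none was higher (median -2.97), and without mice M754 and M761 16 were lower. Npy was at 52.5 to 107.3 CPM in striatum and 5.71 to 15.7 CPM in cerebellum (log2FC = -3.07, SE 0.15), and Cck had a log2FC of -2.34. Adcyap1, the precursor of PACAP, did not pass the test (0.61, adjusted p = 0.18).

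Single subunits of the amino acid receptors differed in both directions. Of 16 ionotropic glutamate receptor genes 4 were higher in cerebellum and 4 were lower (median -0.03), a smaller share in each direction than the 29.1% and 30.8% of all genes, and without mice M754 and M761 5 and 4. The NMDA receptor subunits went in opposite directions. Grin2c was at 158.1 to 527.0 CPM in cerebellum and 63.4 to 97.5 CPM in striatum (log2FC = 2.35, SE 0.23), and Grin2b at 11.7 to 45.1 CPM and 149.8 to 317.7 CPM (log2FC = -3.37, SE 0.34). Of the AMPA receptor subunits Gria4 was higher (2.65, SE 0.20), and Gria1, Gria2 and Gria3 did not pass the test, at 0.08, 0.45 and -0.28. Of the kainate receptor subunits Grik5 was lower (-1.85, SE 0.099). Among 7 metabotropic receptors 2 were higher and 4 were lower, beside 29.1% and 30.8% of all genes. Grm4, which sits on parallel fibre terminals, was higher at 2.70, and Grm5 was the most strongly lower one, at -3.40.

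Of 17 GABA-A receptor subunits 6 were higher in cerebellum and 7 were lower (median -0.31), beside 29.1% and 30.8% of all genes, and without mice M754 and M761 5 and 8. Besides Gabra6, the subunits Gabrb2 and Gabrd were higher, at 2.62 and 0.86. Gabra2, Gabra3, Gabra4 and Gabra5 were lower, at -0.85, -2.02, -1.41 and -3.95. The alpha subunits thus differed from each other by the sign of their regional difference. Of 11 genes of GABA and glycine synthesis and transport 4 were higher and 4 were lower, near the shares of all genes, and without mice M754 and M761 4 and 6. Gad2, a GABA-synthesizing enzyme, was lower (-0.77, SE 0.15), whereas Gad1 was at 342.4 to 591.0 CPM in cerebellum and 357.4 to 662.8 CPM in striatum (-0.02, SE 0.19). Of 81 potassium channel genes 25 were higher and 36 were lower (median -0.46), beside 29.1% and 30.8% of all genes. The counts were 23 and 41 without mice M754 and M761. Kcnc1, a subunit of the fast Kv3 channels, was higher at 2.18, and Kcnj4, an inward rectifier, was the most strongly lower one, at 70.9 to 255.8 CPM in striatum and 0.386 to 0.743 CPM in cerebellum (log2FC = -8.17, SE 0.21).

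**Figure D4:**
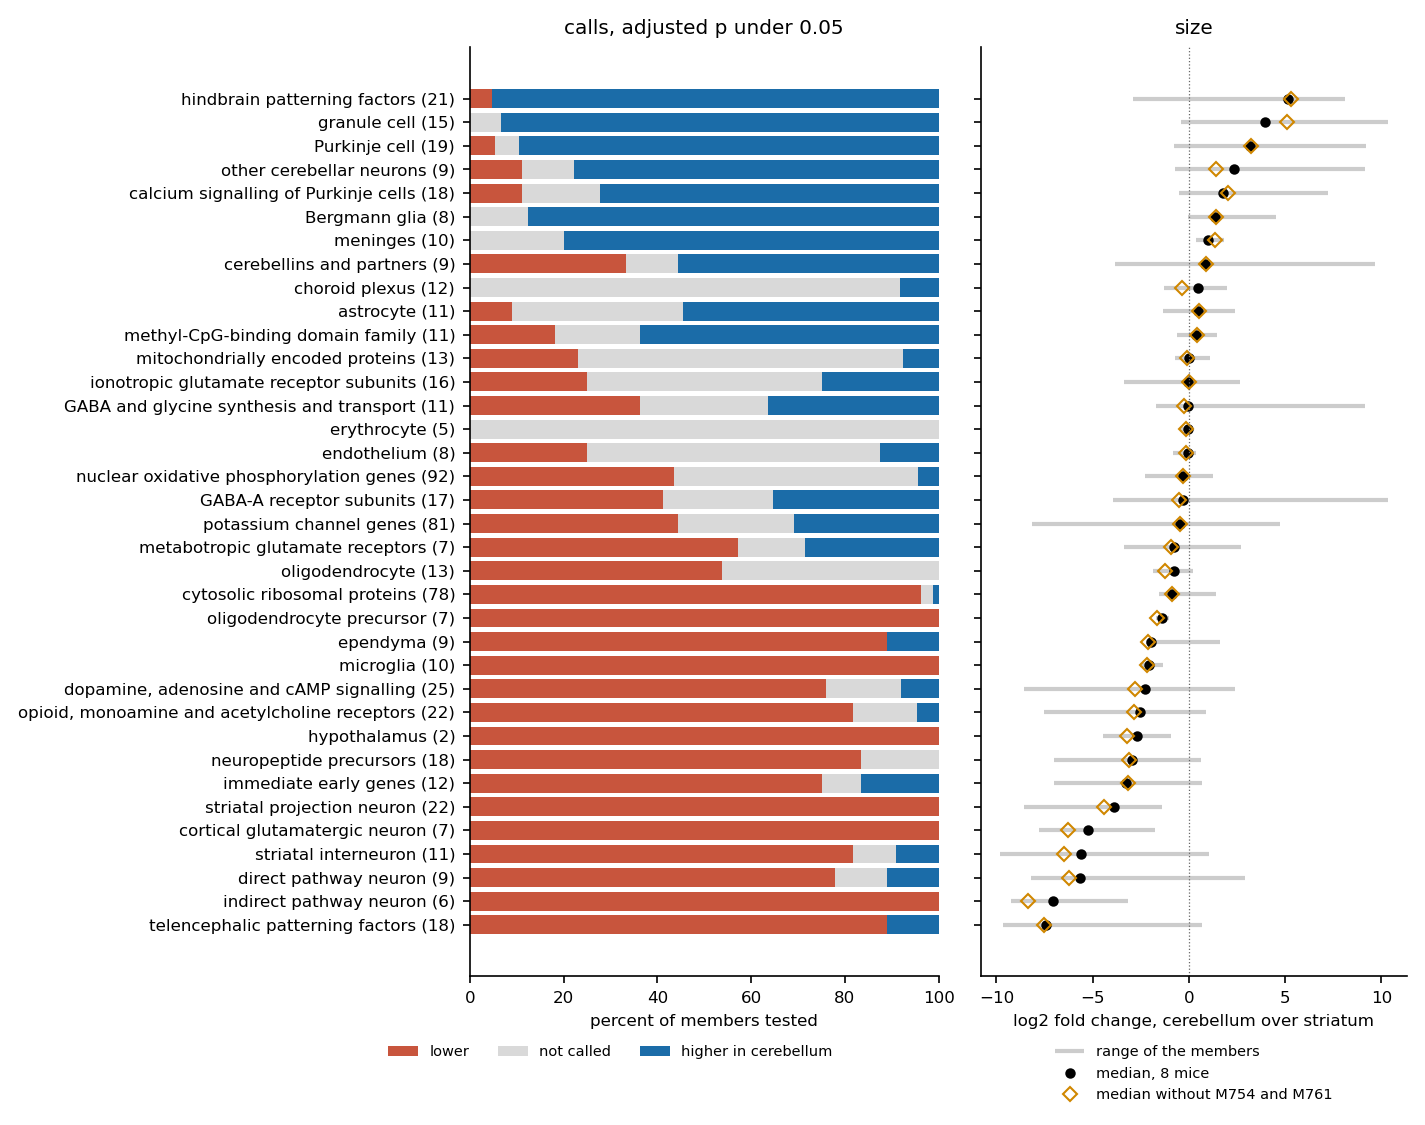
Left, percent of the tested members of each gene list (number in brackets) that were lower, not called or higher in cerebellum. Right, the range of their log2 fold changes, the median in 8 mice (black) and the median without mice M754 and M761 (open diamonds), from 5.12 for hindbrain patterning factors to -7.45 for telencephalic ones.

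Glial and vascular genes also differed by region. All 10 microglia markers were lower in cerebellum, with no overlap between the groups (median -2.06, where 12.1% of all genes had no overlap in this direction). Cx3cr1, the fractalkine receptor, was at 9.55 to 22.9 CPM in cerebellum and 37.5 to 61.3 CPM in striatum (log2FC = -2.16, SE 0.17). The complement gene C1qa was at 10.7 to 22.7 CPM and 46.8 to 72.1 CPM (log2FC = -1.93, SE 0.17), and Tmem119 and P2ry12, genes of resident microglia, were at -2.28 and -1.34. All 7 oligodendrocyte precursor markers were lower as well (median -1.41), among them Pdgfra, a growth factor receptor, at -1.02, and Cspg4, the NG2 proteoglycan, at -1.49. Of 13 oligodendrocyte markers 7 were lower (median -0.80), beside 30.8% of all genes. Without mice M754 and M761 the number was 12 (median -1.27). Their summed level in the cerebellum of mouse M754 was 19974 CPM, against 5857 to 9571 CPM in the other 7 and 7360 to 19475 CPM in striatum. Mbp, myelin basic protein, had medians of 2542 CPM and 5596 CPM (log2FC = -0.80, adjusted p = 0.060), and without both mice it was called lower (-1.27, adjusted p = 0.00020).

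Of 11 astrocyte markers 6 were higher in cerebellum and 1 was lower (median 0.47), beside 29.1% and 30.8% of all genes. The same shares of all genes go with the other lists of this paragraph. Aqp4, the water channel of astrocyte endfeet, was at 281.5 to 622.4 CPM in cerebellum and 55.4 to 123.7 CPM in striatum (log2FC = 2.35, SE 0.17). Slc1a2, the glutamate transporter GLT-1, went the other way, at 596.8 to 1449 CPM and 1817 to 2915 CPM (log2FC = -1.35, SE 0.21), and Slc1a3, the transporter GLAST listed with Bergmann glia, was higher (1.04, SE 0.22). Sox9 and Gfap did not pass the test (0.08 and -0.12). Of 10 meningeal markers 8 were higher (median 0.98), and 9 without mice M754 and M761. Of 9 ependymal markers 8 were lower and 1, Hydin, was higher (median -1.96). Of 8 endothelial markers 1, Slco1a4, was higher and 2 were lower, beside 29.1% and 30.8% of all genes. Without mice M754 and M761 none was higher. No erythrocyte gene of 5 was called. Of 12 choroid plexus markers 1, Otx2, was higher. Ttr, the choroid plexus transthyretin, ranged from 5.75 to 2283 CPM in cerebellum and from 7.73 to 5913 CPM in striatum (log2FC = 0.54, SE 1.7). The list's median changed sign with mice M754 and M761 left out, from 0.48 to -0.37. The 2 hypothalamic markers tested, Trh and Pomc, were lower.

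Immediate early genes, which neurons switch on within minutes of activity, were mostly lower in cerebellum. Of 12 such genes 9 were lower, each without overlap of the groups, and 2 were higher (median -3.25). Among all genes 30.8% were lower, and 12.1% had no overlap in this direction. Egr1 was at 20.2 to 42.0 CPM in cerebellum and 165.5 to 464.4 CPM in striatum (log2FC = -3.12, SE 0.14, adjusted p = 6.8e-08), and Arc, which acts at dendritic synapses, at 16.2 to 34.3 CPM and 88.9 to 333.2 CPM (log2FC = -3.37, SE 0.17). Egr2 and Egr3 had the largest differences, at -7.01 and -6.99. Fos, the best known member, was at 10.7 to 46.5 CPM in cerebellum and 13.3 to 45.7 CPM in striatum and did not differ detectably (-0.03, SE 0.26, adjusted p = 0.92), while its relative Fosb was lower at -4.25 (SE 0.21). Ier2 and Dusp1 were higher (0.69 and 0.47). In WT cortex the mean of Egr1 was 287.2 CPM, near the striatal median of 305.8 CPM, and that of Arc 246.9 CPM.

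Genes of protein synthesis and respiration moved by smaller amounts. Of 78 cytosolic ribosomal protein genes 75 were lower in cerebellum and 1, Rpl24, was higher (median -0.88), beside 30.8% and 29.1% of all genes. Without mice M754 and M761 the counts were 74 and 1. Rplp1, of the ribosomal stalk, was at 120.4 to 261.4 CPM in cerebellum and 400.1 to 692.2 CPM in striatum (log2FC = -1.55, SE 0.17). The summed level of the list was 6307 to 13505 CPM in cerebellum, 14581 to 21932 in striatum and 8648 to 13906 in WT cortex. Rpl24 was at most 1.13 CPM and shares 47.0% of its exon bases with another gene, and many ribosomal protein genes have near-identical pseudogenes, so the single values are uncertain. Of 92 nuclear genes of oxidative phosphorylation 40 were lower and 4 were higher (median -0.30). Without mice M754 and M761 30 were lower, a share near the 30.8% of all genes called lower in the 8 mice. Of 13 mitochondrially encoded proteins 3 were lower and 1, mt-Atp8, was higher, beside 30.8% and 29.1% of all genes. Without both mice none was higher. The ERCC spike-in RNAs made up a median of 0.0571% of the reads in cerebellum and 0.517% in striatum. They were left out before scaling and enter none of these values, and why their share differed was not tested.

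More genes of the Mbd5 family were higher in cerebellum than lower, and Mbd5 itself was not called. Of 11 genes with a methyl-CpG-binding domain 7 were higher in cerebellum and 2 were lower (median 0.37). Among all genes 29.1% were higher and 30.8% were lower (median -0.03). Of the 7 higher genes 2 were higher by 2-fold or more. Baz2b was at 56.8 to 119.0 CPM in cerebellum and 22.4 to 37.2 CPM in striatum (log2FC = 1.46, SE 0.17), and Mbd4, a thymine DNA glycosylase, at 11.1 to 27.3 CPM and 7.46 to 10.0 CPM (log2FC = 1.14, SE 0.15). Mbd2 and Mbd3, alternative subunits of the NuRD complex, were lower (-0.32 and -0.61), and Mbd6, the closest relative of Mbd5, was at -0.06 (SE 0.12).

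The genes with a 2-fold difference also differed in what they were. Of all genes tested 83.5% were protein-coding, against 77.1% of those higher in cerebellum by 2-fold or more and 80.2% of those lower. The protein-coding genes higher in cerebellum spanned a median of 40.7 kb and those lower 21.3 kb, beside 25.0 kb for all, and 23.5%, 17.2% and 15.2% of them spanned more than 100 kb. The X chromosome held 4.24%, 3.14% and 3.39% of the genes. The median of the mean level over both regions was 5.68 CPM for the protein-coding genes lower in cerebellum, 22.0 CPM for those higher and 25.1 CPM for all. A comparison of promoter content between these classes was void, because promoters were matched for fewer than 80% of their protein-coding genes (73.9%, 74.3% and 77.8%).

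The sex of the mice did not detectably change the regional difference at this sample size. With 5 females and 3 males, 0 genes had an adjusted p under 0.05 for the interaction of region and sex in edgeR, 736 had an unadjusted p under 0.05, and DESeq2 called 15. Ebf2, a transcription factor of the same family as Ebf1, was the 1 gene that passed in edgeR when no filter on low counts was used (adjusted p = 0.020, and 0.19 with the filter). It was chosen after its values were seen. In striatum it was at 0.85 to 3.29 CPM in the 5 females and at 0.0313 to 0.124 CPM in the 3 males, and in cerebellum the medians were 12.1 CPM and 13.3 CPM. The females included mice M754 and M761 and the whole of the WT mice of litter 1.

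The same contrast in the 10 Mbd5+/GT mice, which shares no library with that of the WT mice, gave 5753 genes higher in cerebellum (31.5%) and 5932 lower (32.5%). Of the genes higher in WT cerebellum, 4807 were also higher in the Mbd5+/GT mice, which was 90.5% of the WT list and 83.6% of the Mbd5+/GT list. Of those lower, 5133 were shared, or 91.2% and 86.5%. Of the WT calls of 2-fold or more, 2063 of 2145 and 2868 of 2959 were called in the same direction. The Mbd5+/GT estimate had the opposite sign for 15 of the genes higher and 8 of the genes lower in WT cerebellum, and 0 of them were called in that opposite direction in the Mbd5+/GT fit by edgeR. Across the 18279 genes, which are not independent, Pearson's r between the estimates was 0.978 and Spearman's rho 0.962. Each of the 30 leading genes was called in the same direction, with log2FC values such as 9.88 for Gabra6, 9.20 for Pcp2 and -8.58 for Drd1. In these mice too libraries stood apart. The cerebellum of mouse M755 held 402.0 summed CPM of granule cell markers, 5.5% of its group's median, with 604.9 CPM of Hox genes, and the striatum of mouse M763 held 49.8% of the median of its projection neuron markers.

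**Figure D5:**
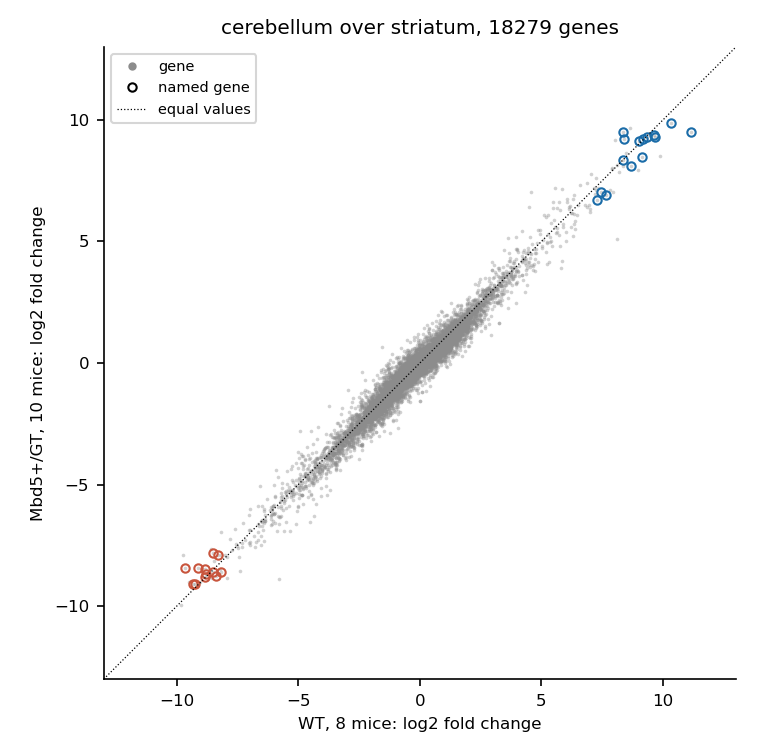
Log2 fold change of cerebellum over striatum in the 10 Mbd5+/GT mice against that in the 8 WT mice for each of the 18279 genes, with 27 of the 30 leading genes circled and a dotted line of equal values. The circled genes lay in the same corners in both, from 6.72 to 9.88 and from -9.10 to -7.82 in the Mbd5+/GT mice.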

How the data were processed

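Per the labels and the study's methods, polyA RNA libraries with ERCC spike-ins were checked with FastQC (0.10.1), reads were aligned to GRCm38 with STAR (2.4.2), and the deposited read counts per Ensembl gene were made by the authors with the GeneCounts option. Which strand column was taken is not given in the sources used here, so antisense and overlapping genes cannot be separated. The counts were used as deposited, without the 92 spike-ins. Genes exceeding 4 counts in 8 or more of the 16 WT libraries were tested with edgeR (4.0.16, R 4.3.3; quasi-likelihood, robust), with TMM factors over all 54 libraries, the mouse as a block and Benjamini-Hochberg adjustment over 18279 genes. DESeq2 (1.42.0) was an alternative. SE is the log2 fold change divided by the root of F. The fit was also run on simulated counts in which far fewer genes differed than were called here. Its error rates in data like these were therefore not tested. Libraries were paired because both came from the same animal. The correlation of their deviations from the group means had a median of -0.105 (-0.152 to 0.182). For libraries of different mice it was 0.001 (-0.472 to 0.457), so libraries of the same mouse were not more alike. Named genes were the 15 protein-coding genes with the largest fold in each direction at 10 CPM or more in the higher region, members of the gene lists, and Mbd5. The comparison, lists and members were chosen with earlier results of these data known. List counts and medians are descriptions without a test. The list members Gpr52 and Pde2a were not analysed here. Ratios with counting intervals cover counting error only. Some genes that met these rules are not reported here.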

Additional observations from a re-analysis of the deposited data

Results flagged for a closer look

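Dixon's test was used on 110 groups of 8 libraries, made of list sums and some of the named genes. The groups share libraries and are not independent. In 19 groups a library's gap to its nearest neighbour over the group's range exceeded the 95% critical value. For independent groups chance alone gives about 1 in 20. The cerebellum of mouse M754 stood out in 13 of the 19. It was low for Sycp1 (6.12 CPM), Gabra6 (222.6 CPM) and Cnpy1 (170.4 CPM) and high for Slc6a5 (322.0 CPM). Its summed CPM was high for markers of striatal projection neurons (1419), cortical glutamatergic neurons (231.8), hypothalamus (5.31), oligodendrocytes (19974), their precursors (405.7) and microglia (271.5), and for Hox genes (169.8), genes of GABA and glycine synthesis and transport (2979) and neuropeptide precursors (742.3).

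The striatum of mouse M757 was high for Gabra6 (1.79 CPM), Cbln3 (3.47 CPM) and the astrocyte sum (3755). The striatum of mouse M752 was high for the sum of oligodendrocyte precursor markers (547.1), that of mouse M761 was low for the sum of potassium channel genes (3475), and the cerebellum of mouse M765 was high for the erythrocyte sum (353.9). The spike-in RNAs, which enter no comparison, made up a median of 0.0571% of the reads in cerebellum and 0.517% in striatum.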

How the results depend on the processing

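With females alone 3218 genes were higher and 3492 lower in cerebellum, with litter 1 alone 2635 and 2840, and with litter 3 alone 3118 and 3307. With at least 10 counts required in every library, fewer genes were tested (14387), and 4607 were higher and 4270 lower. By 2-fold or more 1468 of these were higher and 1648 lower. Scaling by library totals alone gave 5435 genes higher and 5295 lower. In both settings more genes were called higher than lower, unlike in the main fit. Without the replicate block, 5757 genes were higher and 5948 lower, against 5314 and 5626 with the mice paired. Leaving out 1 mouse at a time gave 4661 to 5484 higher and 4961 to 5968 lower. Leaving out mice M751 and M752, whose striatum libraries were labelled as repeated, gave 3883 higher and 4069 lower. For the interaction with sex, DESeq2 called 15 genes and edgeR without a filter 1. Leaving out mice M754 and M761, chosen after seeing the data like the TMM factors within the 16 libraries, gave 5503 genes higher and 5947 lower. Among other moves in the lists, it took the lower calls of oligodendrocyte markers from 7 to 12, of oxidative phosphorylation genes from 40 to 30, of potassium channels from 36 to 41 and of GABA and glycine genes from 4 to 6, and the higher calls of the endothelial and mitochondrially encoded lists from 1 to 0. In the 594 refits of the 30 leading genes and Mbd5, direction and call were as in the paired fit. Calls of other list members were compared only without mice M754 and M761. Antisense, overlapping and near-identical genes stay uncertain.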
